A study of Oryzias melastigma with 12 samples.

Results

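The probes described here crossed the scanner's detection limit between solvent controls and larvae of marine medaka kept in 20 nM hexabromocyclododecane (HBCD). Members were chosen by the detection marks of the control and 20 nM arrays. A probe counted as detected on an array when over 50% of its spots carried the scanner program's mark for signal well above background. Gained probes were detected on 0 of 3 control arrays and on 3 of 3 arrays at 20 nM, and lost probes were detected on 3 of 3 control arrays and on 0 of 3 at 20 nM. There were 75 gained and 68 lost probes, 143 in all, among 26429 custom probes, which is 0.284% and 0.257% of the probes. Because these marks chose the members, every difference between control and 20 nM given for them is a description with no test.

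The study exposed Oryzias melastigma larvae, no older than 24 hours after hatching, for 7 days to 0.2, 2 or 20 nM HBCD, or to no HBCD. All groups, controls included, received dimethyl sulfoxide (DMSO) at 1 in 30000 parts of water. Each group had 3 dishes of 100 larvae, 30 larvae were pooled for each RNA sample, and 1 array was run per pool, so the arrays of a group (n = 3) carry the spread between dishes and that of the array measurement together. Total RNA of whole larvae was labelled with 1 dye, Cy3, and hybridised to a custom Agilent array, and no tissue was separated, so that fewer cells of a type and less RNA per cell cannot be told apart.

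HBCD is a brominated flame retardant that was added to polystyrene foam and textiles. It dissolves in fat, persists in sediment and accumulates in fish, which is why its effects on early life stages of marine fish are studied. A detection mark compares the brightness of a spot with the background around it and with the scatter of that background. It turns a graded signal into a yes or no, and a probe close to the limit can cross it after a small change in its own signal, in the background, or in both. The files give the probes by custom design numbers only and pair 0 of them with a gene name or a sequence, and 0 were matched to the 28599 genes of the gene table used here, so probes and not genes are described.

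The arrays lay on 3 slides of 4 arrays, each with its own scan, and the slides followed the concentrations. Slide 1 held the 3 control arrays and replicate 3 at 0.2 nM. Slide 2 held replicates 1 and 2 at 0.2 nM with replicates 2 and 3 at 2 nM, and slide 3 held replicate 1 at 2 nM with the 3 arrays at 20 nM. No array at 20 nM shared a slide with a control, so the slide and the exposure cannot be told apart in the difference that defined the members. Between 11556 and 12829 probes were detected per array (43.7% to 48.5%), 10448 on all 12 arrays and 10483 on none. Levels are given as log2 of the processed intensity minus the array's own 75th percentile, which lay between 293 and 478 intensity units. The dimmest signal that carried the mark, here called the detection floor, lay between 18.6 and 34.5 intensity units, and control replicate 1 had the lowest floor and 20 nM replicate 2 the highest.

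Detection of the gained probes at the concentrations between, which the rule did not use, differed widely between arrays of 1 concentration. At 0.2 nM replicates 1, 2 and 3 detected 61, 35 and 18 of the 75 gained probes. At 2 nM the same replicates detected 71, 57 and 43. The array at 0.2 nM with the fewest was the one on the slide of the controls, and the array at 2 nM with the most was the one on the slide of the 20 nM arrays. For reference, of the 12973 probes detected on no control, the 6 arrays at 0.2 and 2 nM detected 2.98% to 5.53%, and the 20 nM arrays detected 2.62% to 3.46%.

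The lost probes ran the other way. At 0.2 nM replicates 1, 2 and 3 detected 45, 63 and 50 of the 68 lost probes, and at 2 nM they detected 21, 34 and 36. Every array at 2 nM thus detected fewer lost probes than any array at 0.2 nM, and the fewest were found on the array that shared the slide of the 20 nM arrays. The array at 0.2 nM with the most was replicate 2 on slide 2, and not replicate 3 on the slide of the controls. Of the 11081 probes detected on all controls, replicates 1, 2 and 3 detected 98.8%, 99.1% and 99.5% at 0.2 nM. At 2 nM they detected 98.3%, 98.2% and 97.7%. Among all custom probes they detected 12532, 12803 and 12266 at 0.2 nM, and 12161, 12205 and 11935 at 2 nM. Every array at 2 nM was thus below every array at 0.2 nM in these counts too, and this order was not particular to the lost probes.

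**Figure D1:**
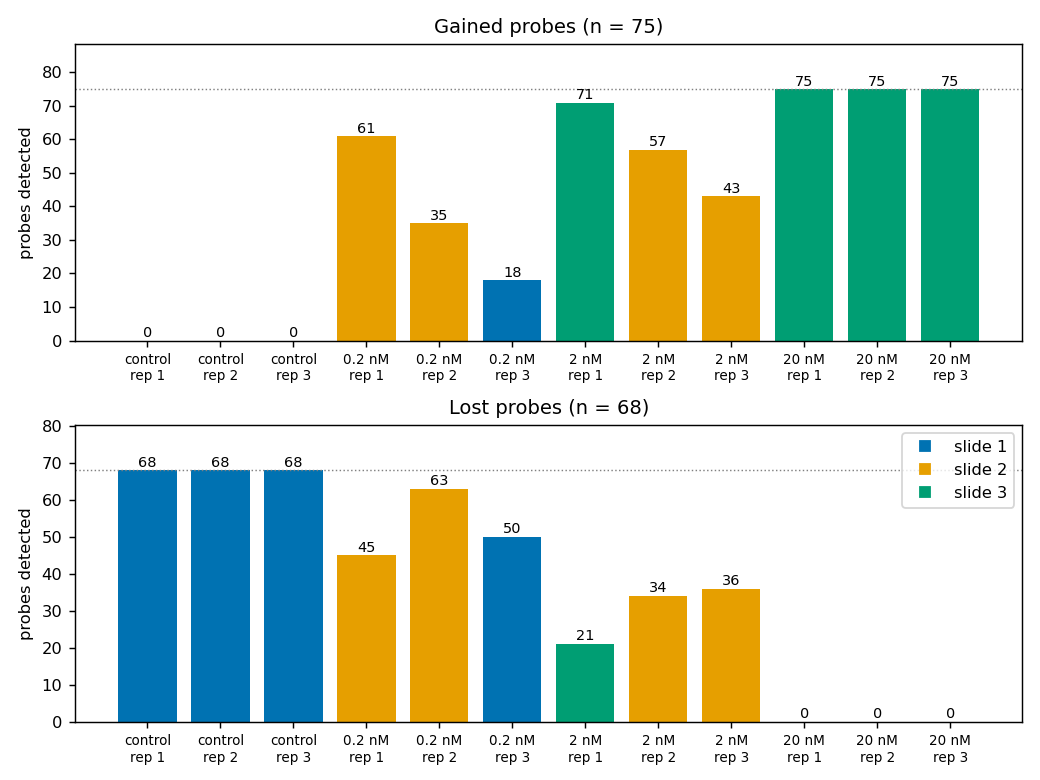
Number of gained probes (top, of 75) and lost probes (bottom, of 68) detected on each of the 12 arrays, with bars coloured by slide and the number written above each bar. The control and 20 nM bars are fixed by the rule; between them the gained counts run from 18 to 71 and the lost counts from 63 to 21, and the arrays of 1 concentration differ from each other both within and between slides.

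Probe by probe, 6 gained probes were detected on no array at 0.2 nM, 31 on 1 array, 31 on 2 arrays and 7 on all 3. At 2 nM the same counts were 3, 13, 19 and 40. More arrays detected the probe at 2 nM than at 0.2 nM for 52 gained probes, fewer for 7, and as many for 16. Over all probes 4.64% were detected on more arrays at 2 nM and 8.11% on fewer, and of the probes detected on no control 6.20% and 7.99%. None of the gained probes (0 of 75) was undetected on all 6 arrays at 0.2 and 2 nM, and 6 were detected on all 6.

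Of the lost probes, 2 were detected on no array at 0.2 nM, 7 on 1, 26 on 2 and 33 on all 3. At 2 nM the counts were 13, 27, 20 and 8. Fewer arrays detected the probe at 2 nM than at 0.2 nM for 50 lost probes, more for 4, and as many for 14. Of the probes detected on all controls, 2.90% were detected on fewer arrays at 2 nM and 0.487% on more. A single lost probe was detected on none of these 6 arrays, and 6 were detected on all 6, so that 20 nM was the only concentration at which those 6 were not detected.

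Set against the slides, 53 of the 75 gained probes were undetected on the 0.2 nM array of slide 1, like the controls beside it, and detected on the 2 nM array of slide 3, like the 20 nM arrays beside it. Neither array matched its slide for 0 gained probes, 18 matched on slide 3 only and 4 on slide 1 only. Of the lost probes, 37 of 68 matched on both slides, 8 on neither, 10 on slide 3 only and 13 on slide 1 only. Of all probes detected on no control, the 0.2 nM array of slide 1 detected 3.06% and the 2 nM array of slide 3 detected 4.02%. Of those detected on all controls these shares were 99.5% and 98.3%. A match on slide 1 was thus usual for probes of either kind, and it was less frequent among the members. The 0.2 nM array of slide 1 detected 24.0% of the gained and 73.5% of the lost probes. The 2 nM array of slide 3 detected 94.7% and 30.9% of them. The share of all probes that matched on both slides was not counted. Among gained probes, 5 were detected on 2 nM replicate 1 alone among the 6 arrays, and among lost probes 2 were detected on 0.2 nM replicate 3 alone. Within slide 2, which held 2 arrays of each concentration, 20 gained probes were detected on more arrays at 2 nM, 13 on more arrays at 0.2 nM, and 42 on as many. On that slide 35 lost probes were detected on more arrays at 0.2 nM, 0 on more arrays at 2 nM, and 33 on as many. Over all probes on slide 2, 2.94% were detected on more arrays at 2 nM and 6.66% on fewer, and of the probes detected on all controls these shares were 0.343% and 2.01%. In the marks the direction of the lost probes was thus also that of all probes, but its share was larger, at 51.5% of the lost probes. In the levels on slide 2 the directions differed. The median difference between 2 and 0.2 nM was -0.36 for the lost and 0.14 for all probes. The 2 nM arrays of slide 2 detected fewer probes (12205 and 11935) than its 0.2 nM arrays (12532 and 12803), and their floors were higher at -3.91 and -3.61 against -3.96 and -4.05, and the part of this in the count was not tested.

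The levels behind the marks were low in all groups. The median level of the gained probes was -4.39, -4.41 and -4.20 in the 3 controls, -3.14, -3.88 and -3.92 in replicates 1 to 3 at 0.2 nM, -2.83, -3.33 and -3.44 at 2 nM, and -3.07, -2.94 and -2.80 at 20 nM. Replicate 1 at 2 nM, on slide 3, fell within the range of the 20 nM medians, and replicate 3 at 0.2 nM was the exposed array nearest to the controls. The median level of the lost probes was -3.19, -3.08 and -3.05 in the controls, -3.33, -2.95 and -3.29 at 0.2 nM, -3.61, -3.60 and -3.45 at 2 nM, and -3.80, -3.78 and -3.65 at 20 nM. The medians of the lost probes at 2 nM lay below all those at 0.2 nM. Detection floors on the same scale ran from -4.09 to -3.41, so both sets sat within a narrow band around them.

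**Figure D2:**
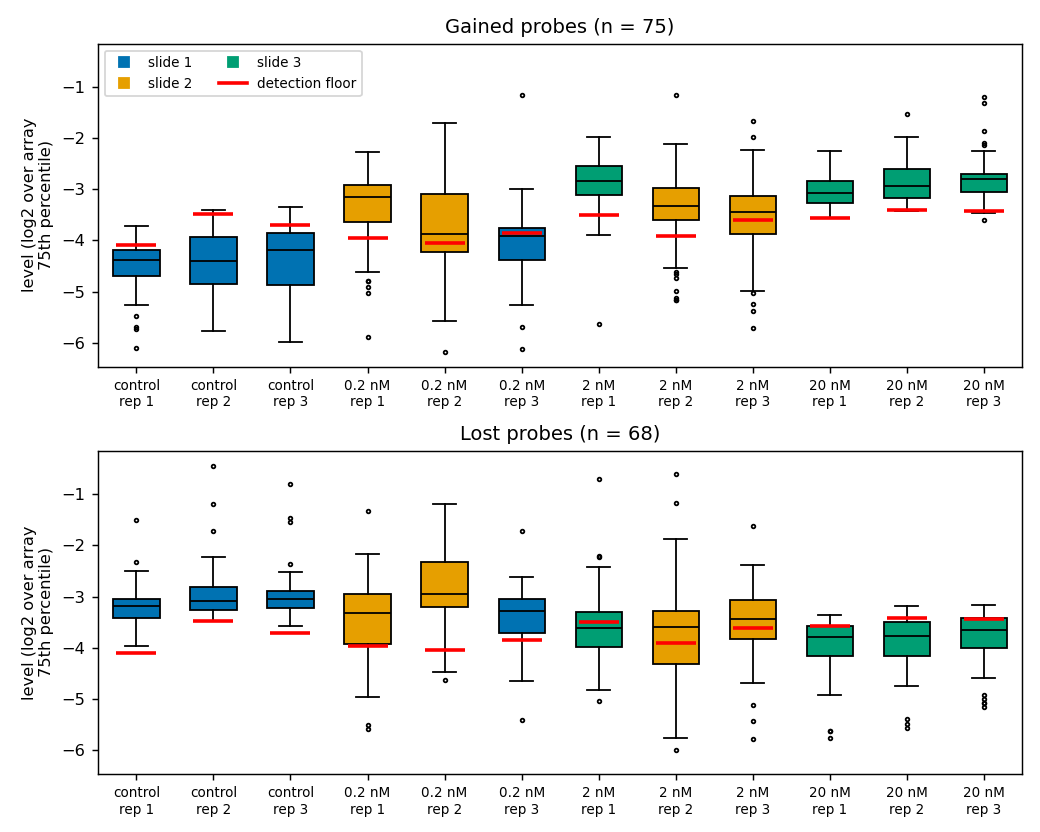
Levels of the gained (top) and lost (bottom) probes on each array, as log2 over the array's 75th percentile; boxes span the quartiles with the median as a line, whiskers reach 1.5 times the box, circles are single probes beyond them, colours mark the slide and the red bar is the array's detection floor. Gained medians run from -4.41 in a control to -2.80 at 20 nM, and lost medians from -2.95 at 0.2 nM to -3.80 at 20 nM.

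Between control and 20 nM, the difference that chose the members, the mean level of the gained probes was higher at 20 nM by a median of 1.50 on the log2 scale (0.58 to 2.77), and that of the lost probes had a median difference of -0.67 (-2.47 to -0.13), while the median over all 26429 probes was 0.14. With normexp background correction, run with an offset of 50 intensity units added to each spot, the same medians were 0.34, -0.33 and -0.12. The 3 control and 3 high-concentration levels did not overlap for 75 of 75 gained probes but for 51 of 68 lost probes. These levels lie behind the marks that chose the members, so the separation follows in part from the rule. No share over all probes was counted beside it. The mean detection floor was -3.47 at 20 nM and -3.76 in controls, so the counts of the 2 sets cannot be compared as a trait of the probes. For the gained probes the median SD between arrays (n = 3 per group) was lowest at 20 nM, with 0.16, against 0.34 in controls, 0.67 at 0.2 nM and 0.38 at 2 nM, and for the lost probes it was 0.20 in controls and 0.23 at 20 nM, against 0.44 at 0.2 nM and 0.37 at 2 nM. Over all 26429 probes the median SD was also lowest at 20 nM, with 0.14, and it was highest in controls, with 0.26. The remaining groups had 0.15 (0.2 nM) and 0.20 (2 nM). The low SD at 20 nM was thus not particular to the gained probes. The groups at 0.2 and 2 nM span 2 slides each, so their SDs include differences between slides. Over all probes their median SDs were still below that of the controls, which shared a slide, and the part of the slides was not tested.

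Most members without the mark still carried the scanner program's other mark, for positive and significant signal. That mark was missing for 0, 4 and 7 gained probes in control replicates 1 to 3. Among the lost probes it was missing for 3, 2 and 0 in 20 nM replicates 1 to 3. Where a group was not detected, its level was treated as having only a bound, so the fold is given as a lower bound. This is the bright group's mean over the mean, per dim array, of the higher of that array's detection floor and the probe's own signal. For the gained probes this bound was over 1 for all 75, with a median of 1.77 and a range of 1.27 to 3.34, over 1.5 for 60 and at least 2 for 23. For the lost probes it was over 1 for 65 of 68, with a median of 1.31 over those and a highest value of 2.60, over 1.5 for 10 and at least 2 for 4. The other 3 lost probes had bounds under 1 and are given no fold. The mean floor was higher at 20 nM, at -3.47, than in controls, at -3.76. A signal marked at 20 nM thus tends to lie above the control floors, while one marked in controls need not lie above the 20 nM floors. A bound over 1 therefore follows in part from the rule for the gained probes, and the bounds of the 2 sets are not alike. The bound allows for the undetected level only, and not for the spread between arrays or for other ways of processing. A fold given below as at least a value is meant in that sense.

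The 4 probes with the largest bounds were followed array by array. CUST_24248_PI414333748, gained, had levels of -4.57, -4.04 and -3.76 in the controls, -3.77, -2.14 and -3.55 at 0.2 nM, -3.40, -4.61 and -4.25 at 2 nM, and -2.37, -2.49 and -1.20 at 20 nM. It was at least 3.34-fold higher at 20 nM than in controls, with group means of -2.02 ± 0.71 and -4.12 ± 0.41 (SD, n = 3 each), and was detected on 3 arrays at 0.2 nM and 1 at 2 nM. Without any 1 array the bound was 2.52 to 3.94, and the log2 difference of 2.10 was 0.65 with normexp and 0.48 as the sum of steps within slides. The levels did not follow the order of the concentrations: 2 nM lay at the level of the controls, and 1 array at 0.2 nM was above both lower arrays at 20 nM. CUST_26313_PI414333748, gained, had levels of -4.22, -4.35 and -3.59 in the controls, -2.33, -3.59 and -3.59 at 0.2 nM, -2.10, -2.50 and -2.73 at 2 nM, and -2.50, -1.97 and -2.25 at 20 nM. It was at least 2.80-fold higher at 20 nM and was detected on all 9 exposed arrays; its log2 difference of 1.81 was 0.68 with normexp and 0.67 as the sum within slides. Its levels at 2 and 20 nM overlapped each other and lay above every control, while those at 0.2 nM spanned the range between.

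CUST_2816_PI414333748, lost, had levels of -3.24, -2.22 and -0.81 in the controls, -3.18, -3.38 and -3.51 at 0.2 nM, -4.61, -1.17 and -3.29 at 2 nM, and -4.45, -4.62 and -4.30 at 20 nM. It was at least 2.60-fold lower at 20 nM, and was detected on 3 arrays at 0.2 nM and 2 at 2 nM. Without control replicate 3 the bound was 1.67, and the log2 difference of -2.36 was -0.98 with normexp and -0.21 as the sum within slides. The controls themselves spread widely (-2.09 ± 1.22, SD, n = 3), and 1 array at 2 nM was brighter than 2 of the controls. CUST_8443_PI414333748, lost, had levels of -3.00, -1.71 and -1.54 in the controls, -3.15, -2.94 and -4.53 at 0.2 nM, -4.43, -3.84 and -4.49 at 2 nM, and -4.31, -3.36 and -5.08 at 20 nM. It was at least 2.58-fold lower at 20 nM, and its log2 difference of -2.16 was -0.91 with normexp and -3.38 as the sum within slides. The control and 2 nM levels did not overlap, and replicate 3 at 0.2 nM was as low as the arrays at 2 nM although it shared the slide of the controls.

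**Figure D3:**
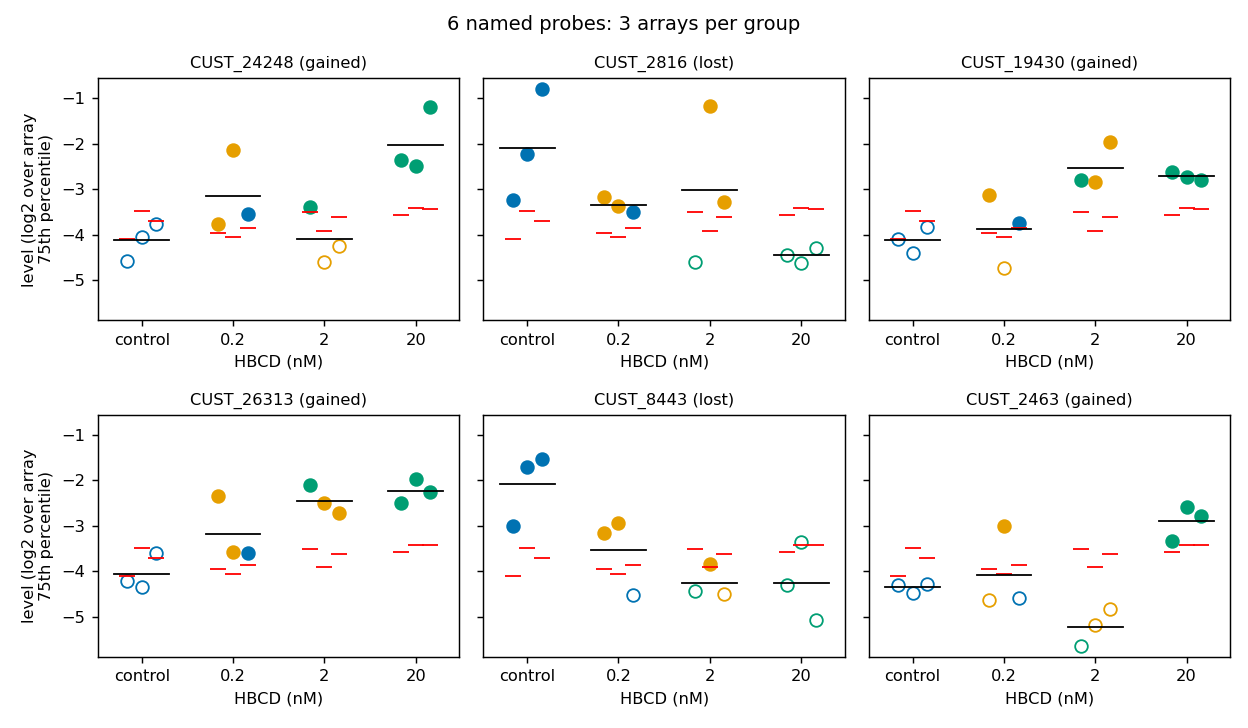
Levels (log2 over the array's 75th percentile) of 6 named probes at 4 HBCD concentrations, replicates 1 to 3 from left to right in each group; filled points were detected, open points were not, blue, orange and green mark slides 1, 2 and 3, black lines are group means and red bars are the arrays' detection floors. CUST_26313_PI414333748 is detected on all 9 exposed arrays, whereas CUST_2463_PI414333748 is detected on 1 array at 0.2 nM, on none at 2 nM and on all 3 at 20 nM.

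The comparison of 2 nM with 0.2 nM used only the 6 arrays that played no part in the choice of members. In limma, fitted over all 26429 probes without a filter, no probe passed an adjusted p of 0.05 (0 probes, 0%), with 2162 (8.18%) at an unadjusted p under 0.05 and a smallest adjusted p of 0.245. Among the members 0 gained and 0 lost probes passed. At an unadjusted p under 0.05 there were 6 of 75 gained probes, all higher at 2 nM, and 5 of 68 lost probes, all lower, shares close to that of all probes. With slide as a fixed block 4 gained probes were at an unadjusted p under 0.05 in limma, all lower at 2 nM, and 6 lost probes, all lower. Over all probes 2040 (7.72%) were under that threshold with the block. The median difference with the block was 0.17 for the gained and -0.36 for the lost probes, against 0.14 for all probes. Without the block the median difference was 0.51 for the gained probes (median SE 0.42), -0.41 for the lost probes (median SE 0.35) and 0.16 for all probes. With normexp and its offset of 50 the medians were 0.64, 0.42 and 0.56. All were thus positive, and the median of the lost probes stayed below that of all probes.

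The mean level was higher at 2 nM for 65 of 75 gained probes (86.7%), for 13 of 68 lost probes (19.1%) and for 65.2% of all probes. All 3 arrays at 2 nM lay above all 3 at 0.2 nM for 8 gained probes (10.7%), against 18.6% of all probes, and below them for 8 lost probes (11.8%), against 5.24% of all probes. The gained probes therefore leaned upward in their means, but clear separation was no more frequent among them than among all probes. The median SE of the difference was 0.16 over all probes, against 0.42 for the gained and 0.35 for the lost probes. The shares without overlap thus compare probes of unlike spread. Within slide 2 alone the median difference was 0.17 for the gained probes, of which 58.7% were higher at 2 nM, against 0.14 and 62.4% for all probes. Within the same slide the median of the lost probes was -0.36, with 85.3% of them lower at 2 nM.

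CUST_19430_PI414333748, gained, rose the most among members whose arrays at the 2 concentrations did not overlap, with levels of -3.13, -4.73 and -3.75 at 0.2 nM and -2.80, -2.84 and -1.97 at 2 nM. The difference was 1.33 (SE 0.47, limma adjusted p = 0.399) and did not pass. In the controls it was at -4.09, -4.41 and -3.84, and at 20 nM at -2.62, -2.73 and -2.80, so the levels at 2 and 20 nM overlapped and lay above all controls. CUST_2463_PI414333748, also gained, had the largest difference downward among members whose arrays did not overlap, with levels of -4.62, -3.00 and -4.59 at 0.2 nM and -5.64, -5.17 and -4.84 at 2 nM. The difference was -1.14 (SE 0.50, limma adjusted p = 0.399) and did not pass. With normexp background correction it was 0.47, when the median over all probes was 0.56. The probe was below detection on all 3 arrays at 2 nM. Its controls were at -4.30, -4.48 and -4.28 and its arrays at 20 nM at -3.32, -2.58 and -2.78, so it was detected at 20 nM and on 1 array at 0.2 nM and nowhere else.

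The difference between 20 nM and control was also divided into steps within slides and steps between slides at 1 concentration. Steps on slides 1 and 3 use arrays that chose the members. On slide 1 the array at 0.2 nM exceeded the control mean by a median of 0.48 over the gained probes, while the lost probes had a median of -0.18 and all probes -0.07. On slide 2 the step from 0.2 to 2 nM was 0.17 for gained, -0.36 for lost and 0.14 for all probes. On slide 3 the step from 2 to 20 nM was -0.16 for gained, -0.10 for lost and 0.01 for all probes. In the median, the gained probes were thus no higher at 20 nM than on the 2 nM array of the same slide.

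Slides were also compared at an unchanged concentration. At 0.2 nM the gained probes were higher on slide 2 than on slide 1 by a median of 0.55, against 0.21 for lost and -0.07 for all probes. For the gained probes this lay mostly in 1 array. Their median levels were -3.14 and -3.88 in replicates 1 and 2 on slide 2, and -3.92 in replicate 3 on slide 1. At 2 nM the gained probes were higher on slide 3 than on slide 2 by 0.53, against -0.19 for lost and 0.14 for all probes. The 3 steps within slides summed to a median of 0.46 over the gained, -0.68 over the lost and 0.05 over all probes. The 2 differences between slides summed to 1.13, 0.00 and 0.05. The sum of 0.00 for the lost probes holds 2 medians of opposite sign, and its spread over probes was wide (SD 1.31). Since the control and 20 nM levels enter the steps on slides 1 and 3, the sums are descriptions of the selected probes. With 1 array in several of these cells, no SD between arrays belongs to these sums.

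**Figure D4:**
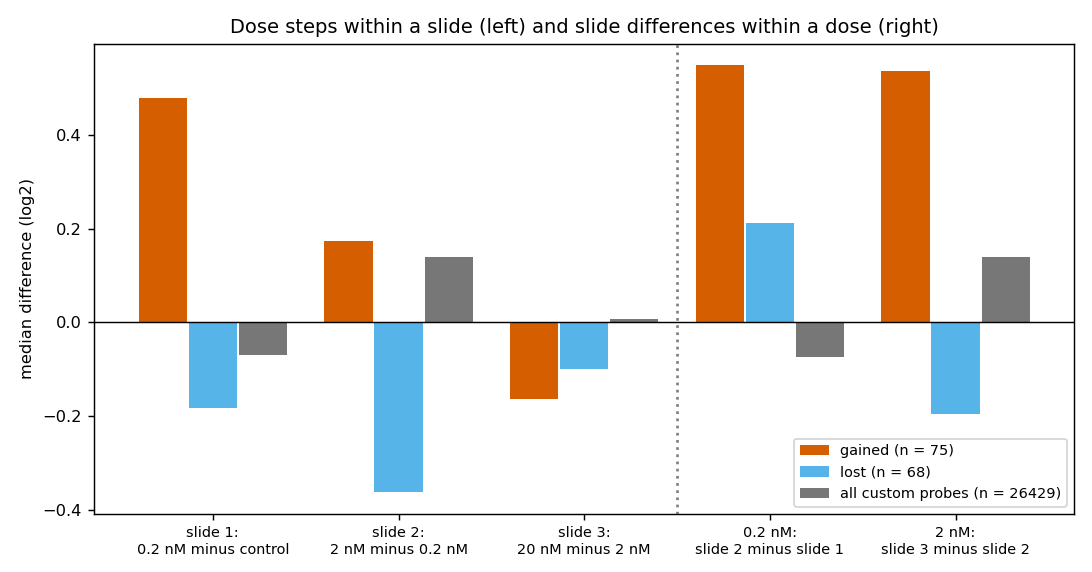
Median log2 difference over the gained probes (n = 75), the lost probes (n = 68) and all custom probes (n = 26429) for the 3 concentration steps that can be taken within a slide (left of the dotted line) and the 2 differences between slides at the same concentration (right). The gained bars are highest for the slide differences, 0.55 and 0.53, and the lost bar is lowest for the step within slide 2, -0.36.

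In limma with a mean for each concentration and slide, 125 of 26425 probes (0.473%) differed between slides 2 and 1 at 0.2 nM and 195 of 26420 (0.738%) between slides 3 and 2 at 2 nM. At an unadjusted p under 0.05 these were 10.7% and 13.0% of the probes. Among the members, 0 gained and 0 lost probes passed the adjusted threshold at 0.2 nM, and 1 gained and 0 lost at 2 nM. Unadjusted, 17 gained probes (15 higher on slide 2) and 6 lost probes differed at 0.2 nM, and 12 gained probes (all higher on slide 3) and 9 lost probes at 2 nM. Each contrast sets 1 array against 2, and the lone array was assumed to vary like the others.

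The gained probe that passed, CUST_9726_PI414333748, named after its values were seen, was detected on exactly the 4 arrays of slide 3. Its levels were -3.96, -4.00 and -3.75 in the controls, -4.40, -4.26 and -4.03 at 0.2 nM, -2.91, -5.13 and -5.25 at 2 nM, and -2.78, -2.69 and -2.96 at 20 nM. At 2 nM the single array on slide 3 was at least 1.80-fold above the 2 arrays on slide 2, where the probe was not detected; the measured levels differed by 2.28 (SE 0.15, limma adjusted p = 0.0455, with 1 array in an arm), and the array lay within the range of the 20 nM levels. Its levels on slides 1 and 2 were all below those on slide 3.

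Single arrays were also set against the arrays of their slide that chose the members, as a description. The 0.2 nM array on slide 1 lay above all 3 controls for 44 of the 75 gained probes (58.7%), against 20.2% of all probes, and below all 3 for 35 of the 68 lost probes (51.5%), against 21.2% of all probes. These shares use the control levels that the rule used, which are low or high by selection. The 2 nM array on slide 3 lay above all 3 arrays at 20 nM for 34 gained probes, within their range for 26 and below it for 15. For the lost probes it lay above for 29, within for 24 and below for 15. Over all probes the shares were 18.9%, 66.2% and 14.9%.

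The place of the members on the array was not used by the rule and was uneven. The array is a grid of 532 rows and 85 columns with the same layout on all arrays. Of the 70 gained probes printed once, 59 (84.3%) lay in rows 267 to 532 and 11 in rows 1 to 266. Of the 62 lost probes printed once, 51 (82.3%) lay in rows 1 to 266 and 11 in rows 267 to 532. All 22407 probes printed once were split 49.7% to 50.3%. In rows 1 to 133, 134 to 266, 267 to 399 and 400 to 532, the gained probes numbered 4, 7, 39 and 20 and the lost probes 30, 21, 8 and 3. In columns 1 to 22, 23 to 44, 45 to 66 and 67 to 85 the gained probes numbered 5, 18, 16 and 31 and the lost probes 21, 24, 14 and 3, so columns 67 to 85 held 44.3% of the gained probes and 21.9% of all probes.

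**Figure D5:**
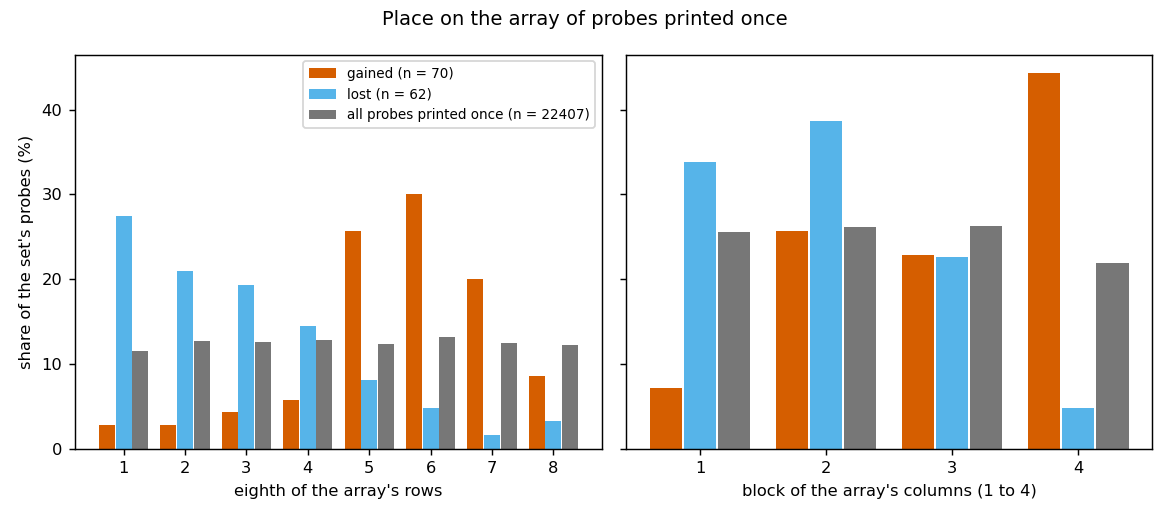
Share (percent) of the gained probes (n = 70), lost probes (n = 62) and all custom probes (n = 22407) printed once that lay in each eighth of the array's rows (left) and each of 4 blocks of its columns (right). Gained probes gather in eighths 5 to 7 of the rows (25.7%, 30.0% and 20.0%) and lost probes in eighths 1 to 3 (27.4%, 21.0% and 19.4%), while all probes hold 11.6% to 13.2% in each eighth.

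Detection of the gained probes at the concentrations between also moved with the place. In rows 267 to 532, replicates 1, 2 and 3 detected 56, 23 and 15 of the 59 gained probes at 0.2 nM and 58, 50 and 39 at 2 nM. In rows 1 to 266 they detected 3, 9 and 2 of the 11 gained probes at 0.2 nM and 8, 5 and 2 at 2 nM. Replicate 1 at 0.2 nM thus detected nearly all gained probes of the second part of the array and few of the first part, whereas replicate 2 detected most of the first part and fewer of the second. In rows 1 to 266 the same replicates detected 32, 49 and 34 of the 51 lost probes at 0.2 nM and 17, 23 and 26 at 2 nM. In rows 267 to 532 they detected 7, 8 and 10 of the 11 lost probes at 0.2 nM and 2, 6 and 5 at 2 nM. Fewer lost probes were thus detected at 2 nM in both parts of the array. Over the whole array 8.11% of all probes were detected on fewer arrays at 2 nM and 4.64% on more. Detection of all probes was not counted by part, so these counts cannot be set against it. The median difference between 2 and 0.2 nM within slide 2 was 0.23 for gained probes in the second part and -0.55 for those in the first, and -0.27 and -0.44 for lost probes.

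Dim probes that were no members differed by place as well. These were spots with a mean level from -4.5 to -2.5 over all arrays, bounds set after the data were seen. Their median difference between 20 nM and control was -0.06 over 2664 spots in rows 1 to 266 and 0.24 over 2819 spots in rows 267 to 532. Bright spots, with a mean level of at least -1, had medians of -0.09 and -0.08 in the same parts. The dimmest spots, with a mean level of -4.5 or lower, had medians of 0.23 over 9861 spots and 0.19 over 9547 spots. The rise toward rows 267 to 532 was thus not seen in the dimmest spots. Between 2 and 0.2 nM the dimmest spots had medians of 0.23 and 0.25, and within slide 2 of 0.21 and 0.22. Between 2 and 0.2 nM the dim spots had medians of -0.12 and 0.07, and within slide 2 of -0.20 and -0.05.

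Array by array, the median level of the dim spots in rows 1 to 266 against rows 267 to 532 was -3.38 against -3.53, -3.42 against -3.62 and -3.33 against -3.62 in the controls. It was -3.46 against -3.37, -3.23 against -3.50 and -3.43 against -3.52 at 0.2 nM, -3.33 against -3.21, -3.60 against -3.48 and -3.50 against -3.44 at 2 nM, and -3.36 against -3.28, -3.37 against -3.37 and -3.35 against -3.25 at 20 nM. The second part was dimmer on all 3 controls and on replicates 2 and 3 at 0.2 nM. It was brighter on replicate 1 at 0.2 nM and on all 3 arrays at 2 nM, and level or brighter at 20 nM. With 1 common floor for all arrays in place of the mark, the gained probes printed once lay 47 in rows 1 to 266 and 129 in rows 267 to 532, and the lost ones 26 and 6. After the median of the dim spots in the same area was subtracted on each array, a correction added after the data were seen, they lay 64 and 93 for the gained and 14 and 15 for the lost probes. The common floor selects other probes than the marks do, as given in the closing section, and the part of place in the marks themselves was not tested.

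Probes printed 5 times allow the comparison within a probe. Of the dim probes with spots in both parts of the array, 429 in number, 307 (71.6%) had a larger difference between 20 nM and control in rows 267 to 532 than in rows 1 to 266, with medians of 0.18 and -0.06 and a median difference of 0.16 between the 2 places. Between 2 and 0.2 nM the share was 68.8%, and within slide 2 it was 68.3%. Of 1332 bright probes with spots in both parts the share was 43.8%, with a median difference of -0.01. For bright probes it was 37.3% between 2 and 0.2 nM, with a median difference of -0.02, and 39.8% within slide 2, with -0.01. The median difference between places was thus larger for dim than for bright probes and of the opposite sign.

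Repeated spots also show how firm the marks are. Of the 5 gained probes printed 5 times, the spots were marked alike on 29 of 60 pairs of probe and array and were mixed on 31, with a median SD over spots of 0.39 on the log2 scale. Of the 6 lost probes printed 5 times, 26 of 72 pairs were alike and 46 mixed, with a median SD of 0.29. For the 70 gained and 62 lost probes printed once the mark rests on 1 spot per array, so this spread was not measured for them.

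At the edge of the rule, the gained probe with the mean closest to the floor had levels of -3.30, -3.31 and -3.61 at 20 nM (mean -3.41, mean floor -3.47) and a control mean of -5.26. The closest of the 122 probes that missed the rule by 1 array at 20 nM had levels of -3.40, -3.61 and -3.41, with no mark on the middle one, and a control mean of -4.31. The lost probe closest to the floor had levels of -3.74, -3.29 and -3.57 in the controls (mean -3.54, mean floor -3.76) and a 20 nM mean of -3.78. The closest of the 210 probes that missed by 1 control had levels of -3.97, -1.69 and -5.62, with no mark on the last, and a 20 nM mean of -4.98. A further 157 probes missed the gained set by 1 marked control, and 120 missed the lost set by 1 marked array at 20 nM, so each set was smaller than either group of near misses. Dropping control replicate 1 from the rule gave 221 gained probes, and dropping control replicate 2 gave 202 lost probes. With 1 common floor in place of the marks there were 202 gained probes, of which 64 were among the 75, and 38 lost probes, of which 25 were among the 68.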

How the data were processed

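Total RNA of pooled whole larvae was measured on 12 single-colour Agilent custom arrays. The authors deposited 1 scanner file per array with spot intensities, not normalized between arrays, and marks of 0 or 1 per spot; per the file headers, Agilent Feature Extraction 10.7.3.1 read the images, and the submitters' processing notes name version 10.7. A further table from the authors, of log2 values, had columns with nearly equal medians (4.34); across probes each column followed the log2 intensity of its array with Pearson's r of 0.998 or more. The table was thus on the log2 scale, uncentred and of the same direction; how it was made was not given in the sources used here.

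The 43277 custom spots stand for 26429 probes: 22407 with 1 spot, 4014 with 5 and 8 with 100. Detection used the marks as deposited. Levels are log2 of the processed intensity minus the array's 75th percentile over spots that are no controls; outlier spots (507 to 729 per array) were left out and spots of a probe averaged. No spot was saturated (0 spots). Groups and replicate numbers come from the labels, slides from the file headers.

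The 3 arrays at 0.2 nM and the 3 at 2 nM were set against each other in limma 3.58.1 (R 4.3.3) with moderated variances and Benjamini-Hochberg adjustment at 0.05 over all probes, two-sided. The script was tested on simulated data. The rule for named probes took the 2 gained and 2 lost probes with the largest lower-bound fold and, in the absence of calls at 2 against 0.2 nM, the member with the largest rise and the member with the largest fall among those whose arrays did not overlap. No gene list could be tested without gene names (0 probes named). The members, lists and tests were chosen with earlier results of these data known. The number of arrays limits the precision of every value. Alternatives covered the detection mark, scaling, background correction, outlier spots, slide and replicate blocks, filters, arrays left out and the place on the array. The files hold no mean spot signal, so normexp was run on the median spot signal, with an offset of 50 intensity units added to each spot. An added offset narrows log2 differences between dim signals, so normexp values of the members are not those of a background correction alone.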

Additional observations from a re-analysis of the deposited data

How the results depend on the processing

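The number of gained probes was 149 by the mark for positive and significant signal, of which 0 were among the reported 75, 202 with 1 common floor for all arrays (64 shared), 200 with the second highest floor (66 shared) and 182 with the common floor after correction for place (59 shared). The number of lost probes was 38 (25 shared), 45 (25 shared) and 35 (17 shared) under the last 3 settings, and 102 (0 shared) by the mark for positive and significant signal. Without 1 array, the rule has a condition less and the counts can only grow: gained probes numbered 79 to 221 and lost probes 80 to 202, with 221 gained without control replicate 1, 131 and 114 without 20 nM replicates 2 and 3, and 202, 132, 126 and 104 lost without control replicates 2 and 3 and 20 nM replicates 1 and 3. For 2 against 0.2 nM no member passed in limma under any setting run. The median difference over the lost probes was 0.42 with normexp and 0.32 with extreme backgrounds replaced as well, when all probes had medians of 0.56 and 0.51; both were added after the data were seen, and the cause was not tested. Without 1 array it was -0.45 to -0.26, and 0.27 to 0.69 over the gained probes. CUST_2463_PI414333748 changed sign to 0.47 and 0.41 under the same normexp settings, both below the medians of all probes there (0.56 and 0.51). The named differences between 20 nM and control were 0.65, 0.68, -0.98 and -0.91 with normexp and 0.48, 0.67, -0.21 and -3.38 as sums within slides, in the order CUST_24248_PI414333748, CUST_26313_PI414333748, CUST_2816_PI414333748 and CUST_8443_PI414333748. Deviations of same-numbered arrays at 0.2 and 2 nM correlated at -0.09, 0.01 and -0.07, so the numbers were not taken to pair the samples, and with the replicate block 0 gained and 0 lost probes passed, with medians of 0.51 and -0.41. The planned normexp on the mean spot signal was not run. Signal near background limits every value of the members.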

Other observations

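Crossings of detection between other pairs of groups were counted in the same way, with the probes printed once divided by place. Between control and 2 nM, 77 probes were detected on all arrays at 2 nM and on no control, and 37 the other way, and 40 gained and 13 lost probes were among them. Of those printed once, 11 that appeared at 2 nM lay in rows 1 to 266 and 58 in rows 267 to 532, and 25 and 12 of those that disappeared. Between control and 0.2 nM 39 probes appeared and 8 disappeared, and between 0.2 and 20 nM 26 appeared and 168 disappeared, of which 33 were lost probes. Of the probes printed once in the last group, 83 lay in rows 1 to 266 and 54 in rows 267 to 532. Between 2 and 20 nM 19 probes appeared, with 14 and 5 in the same rows, and 33 disappeared. Of the arrays at 2 nM only replicate 1 lay on slide 3 with the 20 nM arrays, and replicates 2 and 3 lay on slide 2. Between 0.2 and 2 nM 4 probes appeared, 0 of them gained probes, and 58 disappeared, 2 of them lost probes. Of those printed once, 1 that appeared lay in rows 1 to 266 and 3 in rows 267 to 532, and 33 and 15 of those that disappeared. All pairs but this last one share arrays with the comparison that chose the members.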
